A study of Homo sapiens with 4 samples.

Results

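The circular RNAs described here came from PICALM and 7 other genes of clathrin-mediated endocytosis, namely CLTC, EPS15, ITSN1, ITSN2, REPS1, AP2B1 and SNAP91. A row of the deposited count table was a member when its list of overlapping genes held 1 of these 8 symbols and the circle was not of the antisense type. This rule found 624 back-splice positions among 211599, of which 582 had at least 1 count, and they held 10532 of the 1702290 counts of the series. PICALM gave 206 of the positions and 7076 of the counts. EPS15 gave 144 positions and 2164 counts, and REPS1 gave 54 positions and 581 counts. CLTC had 97 positions and 255 counts, ITSN2 57 and 243, ITSN1 46 and 146, and AP2B1 20 and 67. No row named SNAP91, the close relative of PICALM best known from neurons.

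A circular RNA forms when the spliceosome joins the end of an exon to the start of an upstream exon, a step called back-splicing, so that a circle is defined by the pair of ends it joins. Clathrin-mediated endocytosis takes receptors and membrane from the cell surface into coated vesicles. The adaptor complex AP-2 and the adaptor PICALM bind membrane lipids, cargo and clathrin, whose heavy chain is encoded by CLTC, while EPS15, the intersectins and REPS1 are scaffolds that carry EH domains and bind other coat proteins.

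The cells were a radiation-resistant derivative of the established breast cancer line MDA-MB-468 that had received a total of 50 Gy in fractions. The 2 control libraries carried a control short hairpin RNA, and in the 2 knockdown libraries a stable hairpin was directed at HNRNPL, which binds RNA and acts in splicing. All 4 libraries shared the line and the radiation regimen, and the comparison asked which circular RNAs depend on HNRNPL. The labels call the replicates biological, but nothing in them says that they were separate cultures, so p-values measure the spread between these libraries, which may be technical. The labels describe 1 hairpin, and no row named HNRNPL itself, so the knockdown rests on the labels.

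Total counts were 472428 in control 1, 556578 in control 2, 282737 in knockdown 1 and 390547 in knockdown 2. A count of 0 therefore allows up to 0.635, 0.539, 1.06 and 0.768 counts per 100000 in the same order, which is 3 counts in a library. Control 1 stood apart in its content, with 19.7% of its counts in intron circles against 9.93% to 10.6% in the other libraries. The biological coefficient of variation of circles was 0.905 within the control pair and 0.138 within the knockdown pair, so the control libraries set most of the error. Of 12 epithelial and basal breast markers, 5 had circular counts, and their sum was 35.1 per 100000 in control 1 and at most 18.7 in each of the other libraries. KRT8, KRT14, KRT17, KRT18, KRT19, LAMB3 and ITGB4 had none. Leukocyte and endothelial markers were at 0, 1 of 6 fibroblast markers had counts, in control 1 only, and 2 of 6 neuron markers had counts. All levels below are counts per 100000 of the library total, in the order control 1, control 2, knockdown 1 and knockdown 2 unless stated otherwise. In bulk RNA of this kind, fewer cells that make a circle and less of it per cell cannot be told apart.

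PICALM was picked for its change between knockdown and control in these same libraries, so its values are a description and carry no test. Its summed circular level was 194, 416, 553 and 583. The knockdowns were the higher pair, and control 1 lay far below the other 3 libraries. Controls averaged 305 ± 157 (SD, n = 2), while knockdowns averaged 568 ± 20.9 (SD, n = 2), which is 1.86 times as much. The ratio depended on which control was used. It was 1.36 without control 1 and 2.92 without control 2. On the scale fitted by edgeR with TMM normalization, the log2 fold change was 1.15 ± 0.55 (SE), and with scaling by library size alone it was 0.89. Over all host genes tested, the median log2 fold change was -0.26 under TMM, but -0.58 when only library sizes were used. Every host gene log2 change given below stands against that shift. Over all circles tested, the median was -0.41 under TMM and -0.36 with library-size scaling, and changes of single circles stand against those medians.

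**Figure D1:**
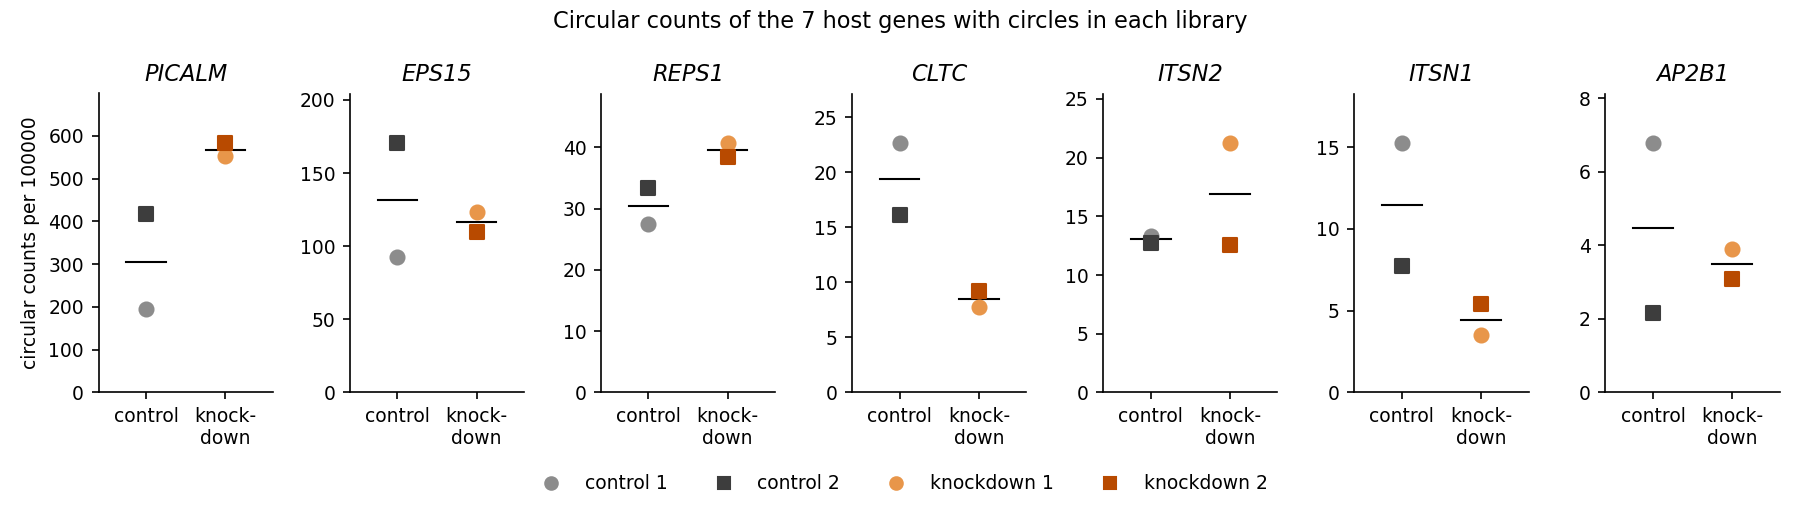
Circular counts per 100000 of the library total for the 7 host genes with circles, 1 panel per gene with its own axis starting at 0, points for single libraries and bars for group means. Both knockdown points lie above both controls for PICALM and REPS1 and below them for CLTC and ITSN1, while the groups overlap for EPS15, ITSN2 and AP2B1.

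Most PICALM counts came from circles that share 1 end. PICALM lies on the minus strand of chromosome 11, from 85957175 to 86069860 in the RefSeq gene table of GRCh38.p14. In 20 exon circles the 5′ end was position 86031611, the start of an exon of 143 nt (86031469 to 86031611), and these circles held 5517 of the 7076 PICALM counts. They differ in the downstream exon that is joined back to this exon, and so form a nearly nested series that grows by the inclusion of later exons. Exon numbers given here are those of the first isoform listed for a circle. The share of PICALM counts in this family was 54.1% in control 1 (95% exact binomial interval 50.9 to 57.4), 77.8% in control 2 (76.0 to 79.5), 83.3% in knockdown 1 (81.4 to 85.1) and 84.1% in knockdown 2 (82.5 to 85.6). These intervals cover counting error only, since amplified copies carry no molecular identifiers. The share was lowest in control 1, and both knockdowns lay above both controls.

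**Figure D2:**
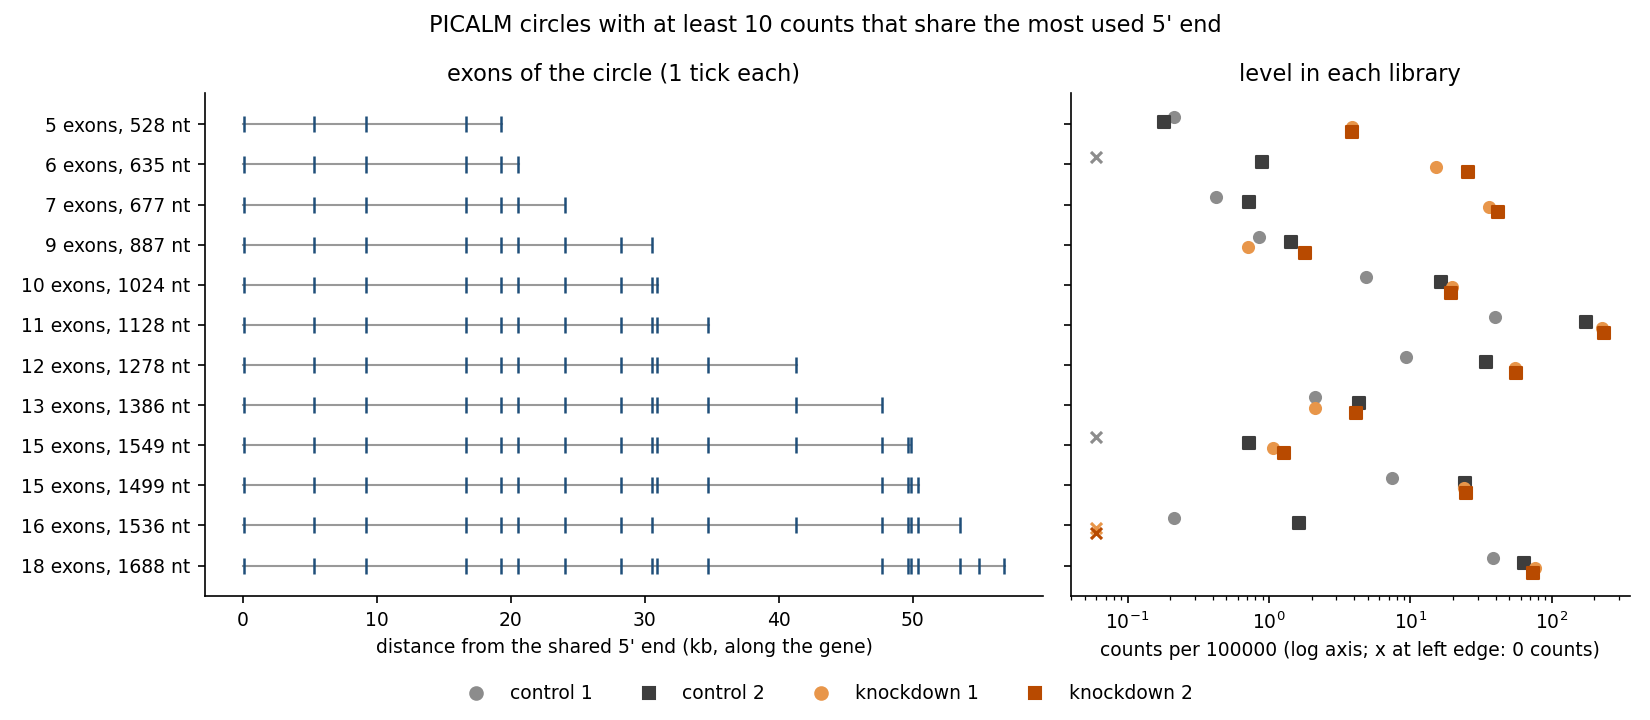
Left, exons of the 12 PICALM circles with at least 10 counts that share the 5′ end, each exon a tick at its distance in kb from that end; right, their counts per 100000 in each library on a log axis, with a cross for 0 counts. The circles of 5, 6 and 7 exons are low in both controls and high in both knockdowns, whereas the circles of 9 and 13 exons overlap between groups.

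The most abundant member of the family joined 11 exons (1128 nt, 85996826 to 86031611). It had 188, 962, 639 and 917 counts, or 39.8, 173, 226 and 235 per 100000. Control 1 was low and the other 3 libraries lay closer together. The circle of 18 exons (1688 nt, ending at 85974708) had 180, 356, 213 and 289 counts, and the circle of 12 exons (1278 nt, ending at 85990250) had 44, 191, 154 and 218. Scaled to library totals, both knockdowns exceeded both controls for each of these circles. The circle of 10 exons (1024 nt, ending at 86000643) had 23, 91, 56 and 76 counts and was higher per 100000 in both knockdowns. That of 15 exons and 1499 nt (ending at 85981129) had 35, 136, 68 and 96, and its groups overlapped. Within the family, the 11-exon circle took 37.8% of the counts in control 1, 53.4% in control 2, 49.0% in knockdown 1 and 47.9% in knockdown 2, so its share overlapped between the groups. The 18-exon circle took 36.2%, 19.7%, 16.3% and 15.1%, with the highest share in control 1.

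The short members of the family showed another pattern. The circle of 7 exons (677 nt, 86007542 to 86031611) had 2 and 4 control counts against 102 and 163 knockdown counts. The circle of 6 exons (635 nt, 86011030 to 86031611) had 0 and 5 control counts against 43 and 100. The 2 circles were each near the counting floor in both controls and well above it in both knockdowns. From summed counts, the knockdown to control ratio was 67.5 (95% exact interval 30.6 to 186, counting error only) for the 7-exon circle and 43.7 (18.3 to 137) for the 6-exon circle. A smaller circle of this kind, with 5 exons (528 nt, ending at 86012281), had 1, 1, 11 and 15 counts and a ratio of 19.9 (4.97 to 173). It is not among the 12 PICALM circles with the most counts and is named, like the next 2, after its values were seen. The circle of 8 exons had few counts, 0, 1, 4 and 4, and was also higher per 100000 in both knockdowns. In the circle of 9 exons (887 nt), with 4, 8, 2 and 7 counts, the groups overlapped. The circles of 5, 6 and 7 exons reached the count limit for testing only through the knockdowns. PICALM was also picked for its change, so the intervals of their ratios test nothing.

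The family was therefore divided at 7 exons, a limit chosen after the values had been seen. Circles of at most 7 exons summed to 1.48, 1.98, 55.5 and 73.0 per 100000, far lower in the controls, with a ratio of group means of 37.2. Without control 1 the ratio was 32.5 and without control 2 it was 43.4. Their share of all PICALM counts was 0.763% (95% exact interval 0.307 to 1.56) in control 1, 0.475% (0.237 to 0.848) in control 2, 10.0% (8.59 to 11.6) in knockdown 1 and 12.5% (11.2 to 13.95) in knockdown 2. Since the limit was chosen on these values, they are a description and the intervals test nothing. The difference of group means was 10.7 percentage points, and between 9.42 and 11.9 when each library was left out in turn. With the limit at 6 exons, which leaves the 7-exon circle out, the difference was 4.02 percentage points, and with a limit of 9 exons it was 10.7.

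The rest of the family and the rest of the gene behaved differently from the short circles. Family circles of more than 7 exons summed to 104, 322, 405 and 417 per 100000, with both knockdowns above both controls. Their ratio of group means was 1.93, but 1.28 without control 1 and 3.96 without control 2. PICALM circles with other ends summed to 89.1, 92.5, 92.3 and 92.7 per 100000, a ratio of 1.02 between the group means. Summed over exon and intron circles, these 186 positions gave nearly the same level in all 4 libraries. Intron circles lie outside the family and held 11.8% of PICALM counts in control 1. They held 3.75% in control 2, 2.49% in knockdown 1 and 1.89% in knockdown 2. The level sum therefore does not mean that exon circles and intron circles were each level.

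**Figure D3:**
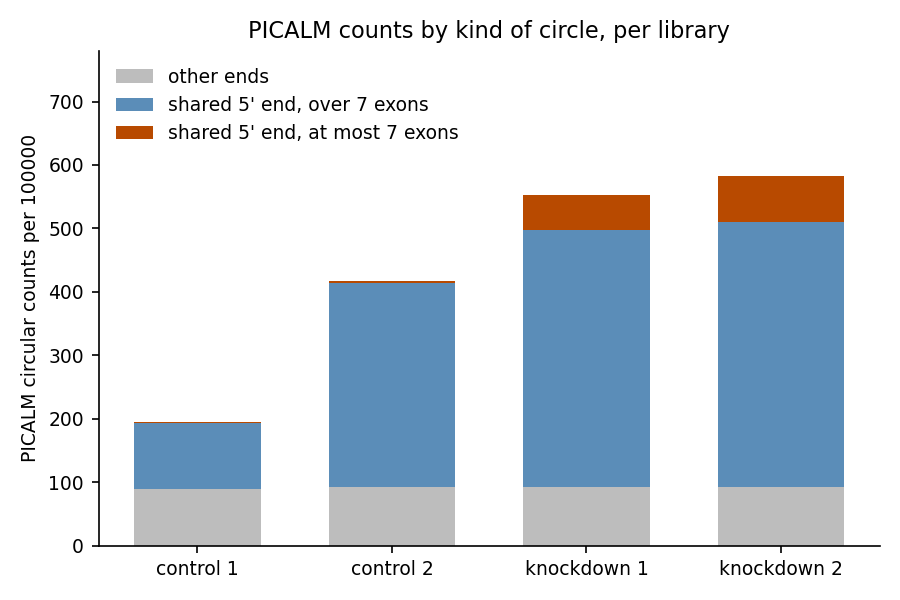
Stacked bars of PICALM circular counts per 100000 in each library, split into circles with other ends, family circles of more than 7 exons and family circles of at most 7 exons. The grey part stays between 89.1 and 92.7, the blue part is lowest in control 1, and the orange part is 1.48 and 1.98 in the controls against 55.5 and 73.0 in the knockdowns.

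Single PICALM circles with other ends did not move in 1 direction. Of 31 with at least 10 counts, 25 were exon and 6 were intron circles. Both knockdowns lay above both controls in 6, below in 4, and the groups overlapped in 21. Over all circles of the series at this depth, 23.2% were higher and 22.9% lower without overlap, so nothing particular to PICALM is read from these counts. The most abundant, a circle of 7 exons near the 3′ side of the family (560 nt, 85974708 to 85983973), had 109, 82, 45 and 56 counts, and its groups overlapped. A circle of 4 exons (451 nt, 85996826 to 86003451) had 9, 20, 32 and 50 counts, higher in both knockdowns, with a ratio of summed counts of 4.32 (2.80 to 6.85). Its 3′ end is that of the abundant 11-exon circle. The circle of 12 exons that opens at the same 86003451 had 22, 32, 20 and 7 counts with overlapping groups. The circle of 9 exons from 86011136 to 85981745 had 11, 14, 11 and 30 counts and was higher per 100000 in both knockdowns, and that of 6 exons from 85996929 to 85981129 had 26, 14, 6 and 12 with overlap. Intron circles held 11.8% of the PICALM counts in control 1, and 3.75%, 2.49% and 1.89% in control 2, knockdown 1 and knockdown 2.

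Over all 43 PICALM circles with at least 10 counts, 14 were higher in both knockdowns, 5 were lower and 24 overlapped. For all circles of the series at this depth, 23.2% were higher and 22.9% were lower without overlap between the groups. Since PICALM was chosen on this contrast, nothing is read from that comparison. The 13 PICALM circles with at least 40 counts held 85.0% of its counts. Of these, 8 were higher without overlap and none was lower, and over all circles of that depth the shares were 29.7% and 28.9%. Nothing is read from this comparison either. Besides the choice of PICALM, its family circles of 6 and 7 exons reached 40 counts only through the knockdowns. The mean number of exons of a family circle, weighted by counts, was 13.8, 12.8, 11.9 and 11.7 in the 4 libraries. The change of group means was -1.52 exons. Among 206 families of circles across the series that share a 5′ end and have at least 500 counts and 5 circles of at least 10 counts, the median change was -0.06 exons, with quartiles of -0.54 and 0.33. PICALM ranked 23 from the lowest among them.

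The level of PICALM circles across the 4 libraries was most like that of R3HDM1, ARHGAP29, the unnamed genes ENSG00000266783 and ENSG00000288643, and GTF2H3. Likeness was the Euclidean distance over the 4 libraries between log2 levels centred on each gene's mean, taken over 4774 host genes with at least 40 counts. The distance was 0.02 for R3HDM1, whose level was 23.7, 51.0, 68.6 and 73.0 per 100000, and 0.08 for ARHGAP29, at 57.8, 120, 169 and 166. With 4 libraries, and PICALM chosen for its pattern, this is only a list of neighbours.

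REPS1 encodes an EH-domain protein of the endocytic machinery. Its circular level was 27.5, 33.4, 40.7 and 38.4, so the groups did not overlap. Among all host genes with at least 10 counts, 15.3% were higher and 36.7% lower in both knockdowns without overlap. For REPS1 the ratio of group means was 1.30. In the host gene test its log2 fold change was 0.67 ± 0.35 (SE; edgeR adjusted p = 0.431). None of the 6 members read in that test passed it, PICALM being given no test, and 37 of 8388 host genes were called (0.441%). Of the 6, 1 had an unadjusted p under 0.05, namely CLTC, and over all host genes 13.7% did. DESeq2 and limma voom likewise called none of the 6. Without control 2, edgeR called 2764 of 7653 host genes and 5 of the 6 members, REPS1 among them (adjusted p = 2.36e-06), and that fit assumes that control 1 alone varies like the knockdown pair.

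The circles of REPS1 did not all move in 1 direction. REPS1 lies on the minus strand of chromosome 6 (138903493 to 138988253), and its counts came mainly from circles that end at 138907495 or 138904388. The circle of 5 exons (602 nt, 138907495 to 138914761) had 28, 70, 26 and 30 counts, with overlapping groups. The circle of 6 exons that opens at the same place but ends at 138904388 (1347 nt) had 18, 38, 10 and 10, and was lower per 100000 in both knockdowns. The circle of 7 exons with that same 3′ end (1466 nt, opening at 138915976) had 9, 6, 12 and 21 counts, and was higher in both knockdowns. The circle of 3 exons with that same 3′ end (1000 nt, opening at 138908816) had 1 and 0 counts in the controls against 17 and 14 in the knockdowns. It has too few counts for the naming rule and is described because of its values.

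As shares of all REPS1 counts, the 6-exon circle took 17.1% ± 4.66 (SD, n = 2) in controls against 7.68% ± 1.43 in knockdowns. The 7-exon circle took 5.07% ± 2.61 against 12.2% ± 2.52, and the 3-exon circle 0.385% ± 0.544 against 12.1% ± 3.85. Of these circles with 1 shared 3′ end, the share of 1 was lower and the shares of the other two were higher. The edgeR test of unequal change among the 11 REPS1 circles with at least 10 counts gave an adjusted p of 0.0385, and 129 of 3360 host genes passed that test (3.84%). The 11 include the 3-exon circle, which reached 10 counts only through the knockdowns. Part of what the test read was set by that filter, so no conclusion is drawn from the call. The call was lost with only circles of at least 40 counts (edgeR adjusted p = 0.114). It was also lost without either knockdown and kept without either control. Those fits assume that the lone library varies like the other pair, and nothing is read from them.

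**Figure D4:**
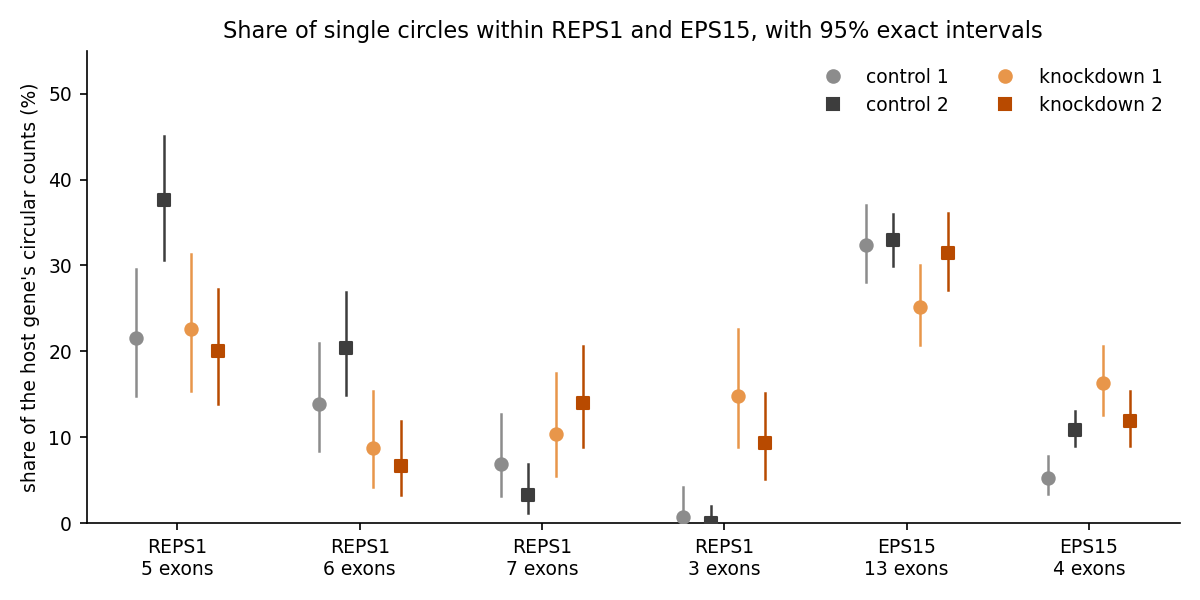
Share of the host gene's circular counts taken by 4 REPS1 circles and the 2 most abundant EPS15 circles, with points for single libraries and 95% exact binomial intervals that cover counting error only. The 3-exon REPS1 circle is at or below 0.769% in the controls and at least 9.33% in the knockdowns, whereas the 13-exon EPS15 circle lies between 25.2% and 32.9% in all libraries.

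Single REPS1 circles did not pass the circle test, in which edgeR called 0 of 21576 circles after adjustment and 2925 before it (13.6%). DESeq2 called 1085 and limma voom 296 of the same circles. The 3-exon circle reached 10 counts only through the knockdowns, so nothing is read from a test of it. The 7-exon circle had a log2 fold change of 1.61 ± 0.59 with an edgeR adjusted p of 0.325, and the 6-exon circle -0.84 ± 0.48 with 0.437. With 1 library left out, the log2 fold change of the 7-exon circle ranged from 1.19 to 2.31.

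EPS15 is a scaffold that clusters at the rim of coated pits and binds AP-2. Its circular level was 92.7, 170, 123 and 110, so both knockdowns lay between the controls. The edgeR log2 fold change was 0.09 ± 0.46 (SE; adjusted p = 0.947), and it was -0.17 with library-size scaling, so no direction can be given. Without control 1 the log2 fold change was -0.31, and without control 2 it was 0.90.

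EPS15 circles on the minus strand of chromosome 1 used a few ends repeatedly. Of the 2164 counts, 1081 were in exon circles with the 3′ end 51402435, 513 in those with the 3′ end 51394381, and 942 in those with the 5′ end 51465326. The share of exon-circle counts with the 3′ end 51402435 was 50.1% ± 5.53 (SD, n = 2) in controls and 53.9% ± 1.66 in knockdowns. For 51394381 it was 24.7% ± 0.875 and 25.0% ± 1.33. The difference between the group means was smaller than the larger SD for both 3′ ends. That does not cover the less used 3′ ends, of which 51403419 and 51421786 were lower in both knockdowns. Several 5′ ends also separated the groups. The end 51465326 took 51.4%, 45.9%, 39.6% and 44.2% of the exon-circle counts, lower in both knockdowns. The end 51448135 took 16.6%, 17.7%, 12.8% and 14.6%, also lower, and 51408332 took 7.45%, 12.6%, 20.4% and 13.6%, higher in both knockdowns. At the 5′ end 51447105 the groups overlapped. These shares were not tested singly, and how often ends separate the groups over the whole series was not computed. The test of unequal circle use gave an edgeR adjusted p of 0.671 over 23 circles. The adjusted p was lower without control 1, where all spread comes from the knockdown pair, and nothing is read from that fit.

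The most abundant EPS15 circle joined 13 exons (1573 nt, 51402435 to 51465326) and had 142, 312, 88 and 135 counts. Per 100000 its groups overlapped, while its share of EPS15 counts was lower in both knockdowns. Its log2 fold change was -0.41 ± 0.34 (edgeR adjusted p = 0.560), where the median over all circles was -0.41. Without control 1 it was -0.60. The circle of 4 exons with the same 3′ end (607 nt, opening at 51408332) had 23, 103, 57 and 51 counts and a log2 fold change of 0.52 ± 0.58 (edgeR adjusted p = 0.668). That change was 1.59 without control 2 and -0.02 without control 1. Of the circles that end at 51394381, that of 13 exons (1558 nt) had 45, 83, 28 and 39 counts with overlapping groups. That of 12 exons (1468 nt) had 25, 55, 13 and 19 counts and was lower in both knockdowns, with a log2 fold change of -0.70 ± 0.42 (edgeR adjusted p = 0.437).

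Other EPS15 circles stood out in counts alone and are named after their values were seen. The circle of 5 exons from 51448135 to 51421786 (552 nt) had 5 and 17 counts in the controls and 0 in both knockdowns. Set against 3 counts in each knockdown library, its mean was at least 2.25-fold lower. It reached 10 counts only through the controls. The circle of 2 exons from 51465326 to 51461091 had 36, 3, 5 and 8 counts, so that most of them were in control 1.

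CLTC encodes the clathrin heavy chain, which forms the cage of the coat. Its circular level was 22.6, 16.2, 7.78 and 9.22, lower in both knockdowns. The ratio of group means was 0.438. The log2 fold change was -0.85 ± 0.36 (SE) under TMM, or -1.18 when only library sizes were used. Its edgeR adjusted p was 0.352, and it passed only without control 2 (edgeR adjusted p = 0.0119). The 89 CLTC circles with counts were spread thinly along chromosome 17, plus strand, with 84.7% of the counts in circles of fewer than 10 counts and 59 circles in 1 library only. Of those 59, 31 were in control 1 and 17 in control 2. The most abundant circle, with 4 exons (687 nt, 59651203 to 59661643), had 5, 9, 1 and 3 counts. The circles of 12 and 6 exons that open at 59647398 had 6, 4, 1 and 0 counts and 6, 2, 0 and 2 counts.

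The intersectins ITSN1 and ITSN2 are scaffolds with EH and SH3 domains that bind EPS15 and dynamin. ITSN1 circles were at 15.2, 7.73, 3.54 and 5.38, lower in both knockdowns. The log2 fold change was -0.99 ± 0.48 (SE; edgeR adjusted p = 0.407), and it ranged from -1.36 to -0.52 with 1 library left out. Intron circles held 30.6%, 4.65%, 50.0% and 23.8% of its counts. ITSN2 circles were at 13.3, 12.8, 21.2 and 12.5, with knockdown 2 below both controls and knockdown 1 above them. Its log2 fold change was 0.66 ± 0.38 (edgeR adjusted p = 0.463), and it ranged from 0.31 to 0.99 with 1 library left out.

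ITSN1, on the plus strand of chromosome 21, had 3 circles with at least 10 counts. The single-exon circle of 1954 nt (33765875 to 33767828) had 4, 7, 4 and 7 counts. A circle of 2699 nt (33718797 to 33735204) had 4 and 13 counts in the controls and 0 in both knockdowns, so its mean was at least 1.74-fold lower against 3 counts in each knockdown. It too reached 10 counts only through the controls. The circle of 4 exons that shares the position 33718797 (429 nt) had 9, 3, 0 and 3 counts. All 6 circles that open there had 39 control counts and 3 knockdown counts together, or 36.0%, 51.2%, 0% and 18.8% of ITSN1 exon-circle counts in the 4 libraries. Those exon-circle counts were only 50, 41, 5 and 16, so the knockdown shares rest on few counts. No change in the use of this end is read from them. The ITSN1 test of circle use had an edgeR adjusted p of 0.261 over these 3 circles, and the circle of 2699 nt entered it only through the controls. The adjusted p was lower without control 1, where all spread comes from the knockdown pair, and nothing is read from that fit.

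Circles that share a 5′ end were found in several members, among them PICALM, EPS15 and CLTC. In ITSN2, on the minus strand of chromosome 2, 9 circles opened at 1 position, 24312375. They held 116 of its 243 counts and 55.1% ± 2.89 (SD, n = 2) of its exon-circle counts in controls and 53.1% ± 13.3 in knockdowns. The groups overlapped. Circles of 13, 15 and 18 exons from that position had 7, 14, 5 and 10 counts, 2, 10, 8 and 6 counts, and 7, 6, 6 and 6 counts. Of the 57 ITSN2 rows, 26 also named the gene ENSG00000251805, whose reads cannot be separated from those of ITSN2 there. The test of circle use gave edgeR adjusted p-values of 0.876 for ITSN2 and 0.906 for CLTC.

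AP2B1 encodes the beta subunit of AP-2, the part that binds clathrin. Its circles were rare, at 6.77, 2.16, 3.89 and 3.07 per 100000, and the groups overlapped. The log2 fold change was 0.01 ± 0.65 (SE; edgeR adjusted p = 0.997) and -0.35 with library-size scaling, so it had no settled sign. Of 67 counts, 32 were in control 1. The circle with the most counts, of 4 exons (630 nt, 35624397 to 35627726 on chromosome 17, plus strand), had 4, 6, 0 and 1 counts.

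**Figure D5:**
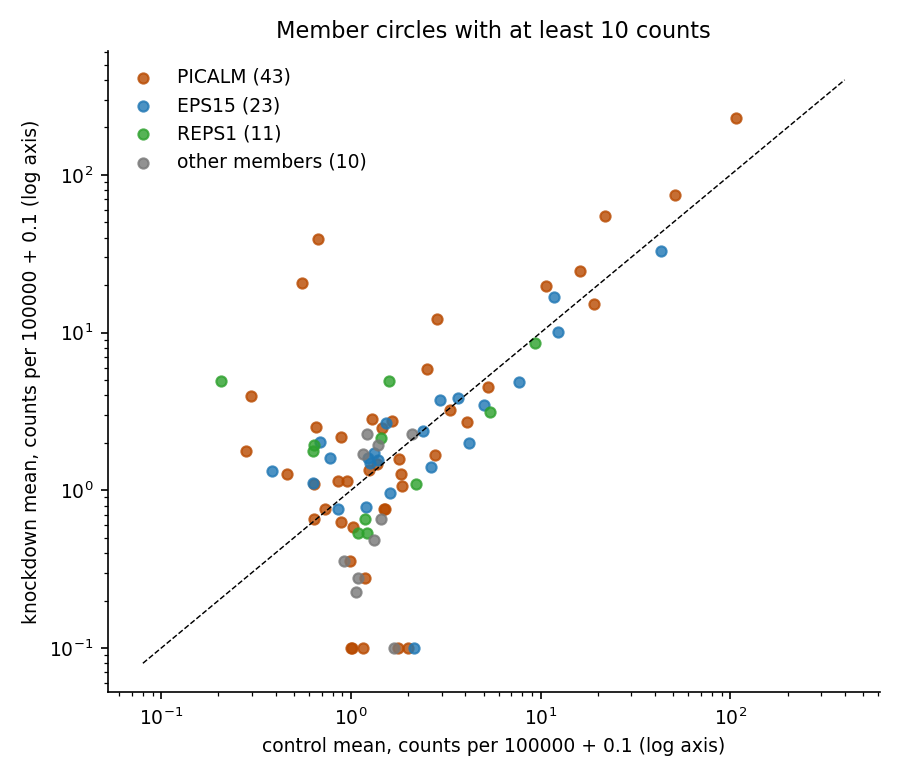
Mean level of each of the 87 member circles with at least 10 counts in controls (x axis) and knockdowns (y axis), in counts per 100000 plus 0.1 on log axes, coloured by host gene, with a dashed line of equality. The PICALM circles of 5, 6 and 7 exons with the shared 5′ end and the 3-exon REPS1 circle lie far above the line at control means below 1, and circles along the bottom edge had 0 counts in both knockdowns.

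Among the 44 circles with at least 10 counts of members other than PICALM, 9 were higher in both knockdowns, 11 were lower and 24 overlapped, where 23.2% of all circles at this depth were higher and 22.9% lower. The edgeR test called 0 of the 44 after adjustment. Before it, 4 had p under 0.05, namely the REPS1 circles of 3 and 7 exons, which were higher, and the EPS15 circle of 552 nt and the ITSN1 circle of 2699 nt, which were lower. All but the 7-exon circle reached the depth for testing only through the group in which they were high, so nothing is read from their p-values. Over all circles, 9.29% were higher and 4.26% lower at that limit. DESeq2 called 1, the 3-exon REPS1 circle, from which nothing is read for the same reason, and limma voom called none. Of the 582 member circles with counts, 87 reached 10 counts. Circles below that depth were not tested singly, and for CLTC, ITSN1, ITSN2 and AP2B1 they held most of the counts. The composition of control 1 moved with several of these levels, and its part in the results was not tested.

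Other genes of the pathway were taken from a list of 61 genes of clathrin-mediated endocytosis. Circular counts were found for 41, and 28 could be tested. The edgeR test called 0 of the 28 after adjustment. Before it, 9 had p under 0.05, 3 higher and 6 lower, where the share over all host genes was 13.7%. The groups did not overlap for 3 that were higher and 18 that were lower, against 15.3% and 36.7% of all host genes. Their median log2 fold change was -0.77 against -0.26 over all host genes, and -1.06 against -0.58 with library-size scaling. The 2 genes with the most counts were TFRC and PIK3C2A. TFRC, the transferrin receptor taken up through coated pits, was at 47.2, 48.9, 21.9 and 25.3 per 100000 (log2 fold change -0.71 ± 0.34, edgeR adjusted p = 0.397). That change ranged from -0.84 to -0.41 with 1 library left out. PIK3C2A, a lipid kinase recruited by clathrin, was at 17.6, 25.2, 40.7 and 43.0 (1.25 ± 0.38, edgeR adjusted p = 0.220). Its change ranged from 0.97 to 1.83 with 1 library left out. TFRC and PIK3C2A were both without overlap between groups, in opposite directions.

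In a second list of 28 genes of other clathrin and adaptor-protein complexes, 13 could be tested and 1 was called. Over all host genes 37 of 8388 were called (0.441%), all of them higher. Of the 13, 3 were higher and 3 lower without overlap between groups, against 15.3% and 36.7% of all host genes. AP5M1, the medium subunit of the AP-5 complex, had 14, 12, 39 and 83 counts, or 2.96, 2.16, 13.8 and 21.3 per 100000. It rose in the knockdowns, by 3.10 ± 0.45 on the log2 scale (SE; edgeR adjusted p = 0.0401). The call was lost without knockdown 1 and without knockdown 2. Every other host gene call was lost there too, so that loss is not particular to AP5M1. Its log2 fold change ranged from 2.73 to 3.42 with 1 library left out. The median of the list was 0.06. SCYL2, a clathrin-binding protein of coated vesicles, was at 76.2, 213, 256 and 256 (1.07 ± 0.58, edgeR adjusted p = 0.441), with control 1 low as for PICALM. Its log2 fold change ranged from 0.50 to 2.32 with 1 library left out. AP3B1, a subunit of the AP-3 complex, was at 30.5, 40.4, 33.2 and 26.1 (0.03 ± 0.37, and -0.26 with library-size scaling; edgeR adjusted p = 0.978) with overlapping groups. Without control 2 the AP3B1 log2 fold change was 0.52.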

How the data were processed

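Circular RNA was measured in 4 nanopore libraries. Induro reverse transcriptase primed with random hexamers copied total RNA, running around circles repeatedly, and phi29 polymerase amplified the cDNA, per the labels' protocols. Counts are therefore not independent molecules. The authors deposited whole-number counts per back-splice position, not normalized, with circle type, exon structure, length in nt and overlapping genes; the caller named in the rows is CIRI-long. The submitters' processing notes name GRCh38.p14 and DESeq2. Other steps and filters were not given in the sources used here. The deposited table of scaled values was not used.

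Counts per 100000 were computed from the deposited counts. For the host gene test, a circle was counted for every gene it names, to match the member rule, and antisense circles were left out. Tests were edgeR 4.0.16 quasi-likelihood F tests in R 4.3.3 with TMM and Benjamini-Hochberg adjustment over the whole table, at least 10 counts over the 4 libraries and a threshold of 0.05. Circle use was tested with diffSpliceDGE. DESeq2 1.42.0 and limma 3.58.1 (voom with group weights) were alternatives. The fits were tested on simulated data. With 2 libraries against 2, no permutation test was run.

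Members and lists were chosen with earlier results of these data known. The text names the 8 host genes, the 12 PICALM circles and 3 circles of each other member with the most counts, the higher and lower circle of each member with the smallest p among those with at least 40 counts, the 2 genes with the most counts of each pathway list and any called gene, and the 5 host genes most like PICALM in log2 of counts per 100000 plus 0.5. Circles named after their values were seen are marked as such. Replicate numbers were only names: over 4944 circles, libraries with 1 number deviated together with a correlation of only 0.07. A planned search for CA repeats beside back splices needs a genome sequence and was not analysed here.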

Additional observations from a re-analysis of the deposited data

How the results depend on the processing

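Numbers of calls moved with most settings, and the cause was not tested. Of host genes, 37 passed as reported, against 185 with DESeq2, 61 with DESeq2 size factors in edgeR, 107 with at least 40 counts, 116 with at least 5 counts in 2 libraries, 89 with circles naming 1 gene, 75 with exon circles only, 78 with the first gene named, 56 with library-size scaling, 0 with edgeR's newer dispersion method (1249 before adjustment), 415 with no count filter, 395 with limma voom, and 0 to 2764 with 1 library left out. Of circles, 0 passed as reported, against 1085 with DESeq2, 562 with at least 40 counts, 1422 with at least 5 counts in 2 libraries, 427 with exon circles only, 471 with no count filter, 296 with limma voom, and 0 to 6421 with 1 library left out. For circle use the count was 129 as reported, 61 by the Simes method and 1 to 1217 with 1 library left out. A fit without 1 library assumes that the lone library varies like the other group, and the knockdown pair varied least. With the replicate number as a block, although the numbers do not pair the libraries, 306 host genes, 1620 circles and 682 genes in the use test passed, and the REPS1 use test stayed past the threshold (edgeR adjusted p = 0.00141).

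The fitted log2 fold changes of CLTC, ITSN1, ITSN2 and REPS1 as host genes kept their sign under all 16 alternatives. EPS15 turned to -0.17 with library-size scaling and -0.31 without control 1. AP2B1, near 0 as reported, turned to -0.054 with at least 40 counts, -0.053 with no count filter, -1.23 with exon circles only, -0.35 with library-size scaling and -0.0055 with the newer dispersion method, and ranged from -0.41 to 0.90 with 1 library left out, where it was -0.11 without knockdown 1. With 1 library left out, the ratio of levels ranged from 1.36 to 2.92 for PICALM, 0.514 to 1.61 for AP2B1, 0.685 to 1.26 for EPS15 and 0.962 to 1.63 for ITSN2, so that it crossed 1 for the last 3. Of single circles, the 4-exon EPS15 circle ranged from -0.016 to 1.59, the 13-exon ITSN2 circle from -0.10 to 0.50 and the 5-exon REPS1 circle from -0.42 to 0.34 with 1 library left out, and the ITSN2 circle was at -0.035 with no count filter. AP3B1 was at -0.023 with circles naming 1 gene, -0.045 with exon circles only, -0.26 with library-size scaling and -0.035 with no count filter, and ranged from -0.22 to 0.52 with 1 library left out. The AP5M1 call was lost with edgeR's newer dispersion method (adjusted p = 0.0955), as were all other host gene calls. Depth limits circles of few counts most, since 3 counts are 1.06 per 100000 in knockdown 1.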
